A study of Mus musculus with 20 samples.

Results

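The glutathione S-transferases are enzymes that join the tripeptide glutathione to electrophilic compounds, and 10 of their genes were followed here across the livers of mice fed a high-fat, high-fructose diet (HFHF) with and without a guide RNA (gRNA) against Flcn, and of mice on chow. The members were the rows of the deposited table whose Ensembl identifiers carry the GENCODE M21 symbols Gsta2, Gsta3, Gsta4, Gstm1, Gstm2, Gstm3, Gstm4, Gstm6, Gstp1 and Gstt1. All 10 were found among 32400 genes, and all 10 were among the 13667 genes that passed the filter on low counts. The symbols were chosen by name, with earlier results of these data known.

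Poly(A) messenger RNA of liver was sequenced in 20 libraries from the mouse substrain C57BL/6NTac. The HFHF Flcn gRNA group (n = 8) was kept on the HFHF diet and received a type 8 adeno-associated virus (AAV8) with a gRNA against Flcn, the gene of folliculin, which acts on Rag GTPases at the lysosome. The HFHF control group (n = 7) was kept on the same diet and received vehicle (phosphate-buffered saline, PBS). Mice of the chow control group (n = 5) ate standard chow and received no treatment. The labels give no age, no sex, no position of the guide and no source of the nuclease, and no group received a virus without the Flcn guide, so effects of the virus and of the guide cannot be told apart. Diet and vehicle likewise differ together between the HFHF control and chow groups. Whether every library is from its own mouse cannot be read from the labels, so p-values measure the spread between these libraries.

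Libraries held 13974379 to 19586576 estimated counts in the gRNA group, 15244760 to 18194089 in HFHF controls and 14131976 to 16285324 in chow controls. Members had between 226.9 and 51364 counts in a library, so counting error was small beside the spread between libraries. The targeted gene itself averaged 17.8 ± 2.40 CPM (counts scaled to a common library size after TMM normalization) in gRNA libraries, 20.7 ± 2.98 CPM in HFHF controls and 22.2 ± 6.03 CPM in chow controls (SD). Flcn messenger RNA did not pass the test between gRNA and HFHF control (-0.23 on the log2 scale, SE 0.12, adjusted p = 0.14), with overlapping libraries, so the RNA level alone does not check the labels. Markers of hepatocytes, the main cells of the liver, summed to 69190 to 104900 CPM in gRNA libraries, 62440 to 86090 CPM in HFHF controls and 98430 to 122700 CPM in chow controls over 9 genes, so the labelled tissue was plain in every group.

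Cytosolic glutathione S-transferases work as dimers and fall into classes, of which alpha, mu, pi and theta are represented here. Hepatocytes hold large amounts of them, and their products leave the cell through transporters of the ABCC family or are broken down to mercapturic acids. Many of the alpha and mu genes are induced through NRF2, a transcription factor released from KEAP1 when electrophiles or oxidants modify it, and through the xenobiotic receptors CAR and PXR.

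The genes lie in a few clusters of the mouse genome (build GRCm38, GENCODE M21). The 5 mu-class members stand in 1 cluster on chromosome 3. On chromosome 3, all on the minus strand, the annotation places Gstm6 (ENSMUSG00000068762) from 107938847 to 107943749, Gstm3 (ENSMUSG00000004038) from 107963696 to 107969283, Gstm2 (ENSMUSG00000040562) from 107981702 to 107986453, Gstm1 (ENSMUSG00000058135) from 108012255 to 108017973 and Gstm4 (ENSMUSG00000027890) from 108040408 to 108044894. On chromosome 9 it places Gsta4 (ENSMUSG00000032348) from 78182774 to 78209349 on the plus strand and Gsta2 (ENSMUSG00000057933) from 78331018 to 78355788 on the minus strand. It places Gsta3 (ENSMUSG00000025934) from 21240589 to 21265661 on the plus strand of chromosome 1, Gstt1 (ENSMUSG00000001663) from 75783813 to 75798584 on the minus strand of chromosome 10 and Gstp1 (ENSMUSG00000060803) from 4035407 to 4037985 on the minus strand of chromosome 19. RefSeq sequences around the start site, 250 bases before to 50 after it (build GRCm38.p6), matched 9 of the 10 members and gave 13 windows. The bases before the start are shown for Gstm1, Gstm2 and Gstm3, the members with the largest differences between gRNA and HFHF control livers, and for Gsta3, the single member in which the core of the antioxidant response element was found, which is set in capitals.
Gsta3, chr1:21240335-21240584, plus strand: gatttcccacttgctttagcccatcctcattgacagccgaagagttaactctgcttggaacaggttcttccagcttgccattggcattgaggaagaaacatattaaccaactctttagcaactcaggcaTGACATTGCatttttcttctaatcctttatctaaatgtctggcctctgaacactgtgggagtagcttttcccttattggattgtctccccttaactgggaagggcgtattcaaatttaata
Gstm1, chr3:108017974-108018223, minus strand: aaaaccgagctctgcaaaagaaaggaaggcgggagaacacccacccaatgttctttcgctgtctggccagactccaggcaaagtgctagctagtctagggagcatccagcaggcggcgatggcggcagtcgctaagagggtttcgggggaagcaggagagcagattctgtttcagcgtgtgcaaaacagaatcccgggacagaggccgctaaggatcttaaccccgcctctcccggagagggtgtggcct
Gstm2, chr3:107986454-107986670, minus strand: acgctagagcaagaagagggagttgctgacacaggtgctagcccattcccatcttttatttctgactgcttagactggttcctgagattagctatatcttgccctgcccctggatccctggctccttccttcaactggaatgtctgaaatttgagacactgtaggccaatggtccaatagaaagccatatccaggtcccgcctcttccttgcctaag
Gstm3, chr3:107969284-107969424, minus strand: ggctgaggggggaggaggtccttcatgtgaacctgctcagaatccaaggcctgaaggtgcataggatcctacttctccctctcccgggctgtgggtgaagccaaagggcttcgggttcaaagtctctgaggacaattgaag
Each is written 5′ to 3′ on the strand of the gene and ends at the base before the annotated gene or RefSeq start. Both strands of the windows were searched for TGACNNNGC, the core of the element that NRF2 binds with small MAF proteins, for TGAGTCA, bound by AP-1, and for CACGTG, the E-box core bound among others by the MiT/TFE factors that folliculin acts on. The first of these letters can overlap the second on the other strand. TGACNNNGC was present in 12.4% of 32851 promoter windows of all genes and, among the members, in Gsta3 as TGACATTGC. TGAGTCA was present in 5.2% of all windows and, among the members, in that of Gstp1. CACGTG was present in 7.15% of all windows and in 0 of the members. A match is only a run of letters, and the absence of one says nothing about elements farther away.

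Against HFHF controls, the gRNA livers had lower levels of all 5 mu-class members and of Gsta4, while Gsta2, Gsta3, Gstp1 and Gstt1 did not pass the test. So 6 of the 10 members fell and 0 rose, where 38.6% of all tested genes were called in this comparison, 19% lower and 19.6% higher (edgeR's quasi-likelihood test, Benjamini-Hochberg adjusted p under 0.05). The median log2 fold change of the members was -0.39, against 0.01 over all tested genes, and the members ranged from -1.88 to 0.19. No member separated the gRNA from the HFHF control libraries without overlap, which 5.04% of all genes did upwards and 6.01% downwards.

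Between HFHF control and chow livers the family split. Gstm1, Gstm2, Gstm3 and Gstm4 rose, whereas Gstm6, Gsta3, Gstp1 and Gstt1 fell, and Gsta2 and Gsta4 were not called. That is 8 of 10 called, where 57% of all tested genes were called, 28.1% higher and 28.9% lower. The members' median log2 fold change was -0.05, against -0.01 over all genes, within a range of -0.86 to 2.83. Gstm1 and Gstm3 were higher in every HFHF control library than in any chow library, and Gstm6, Gsta3 and Gstp1 lower in every one, where 18.8% of all genes separated upwards and 18.1% downwards.

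Against chow, the gRNA livers had 4 members lower, namely Gsta3, Gsta4, Gstm6 and Gstp1, and 0 higher. This share lies near the background of this comparison, in which 42.6% of all genes were called, 20.9% higher and 21.7% lower. The members' median log2 fold change was -0.22, against 0.003 over all genes. Gsta3 and Gstm6 were lower in every gRNA library than in any chow library, a separation that 8.98% of all genes showed downwards and 9.01% upwards. The 3 comparisons share libraries, so the values of each are given side by side and are not independent of each other.

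**Figure D1:**
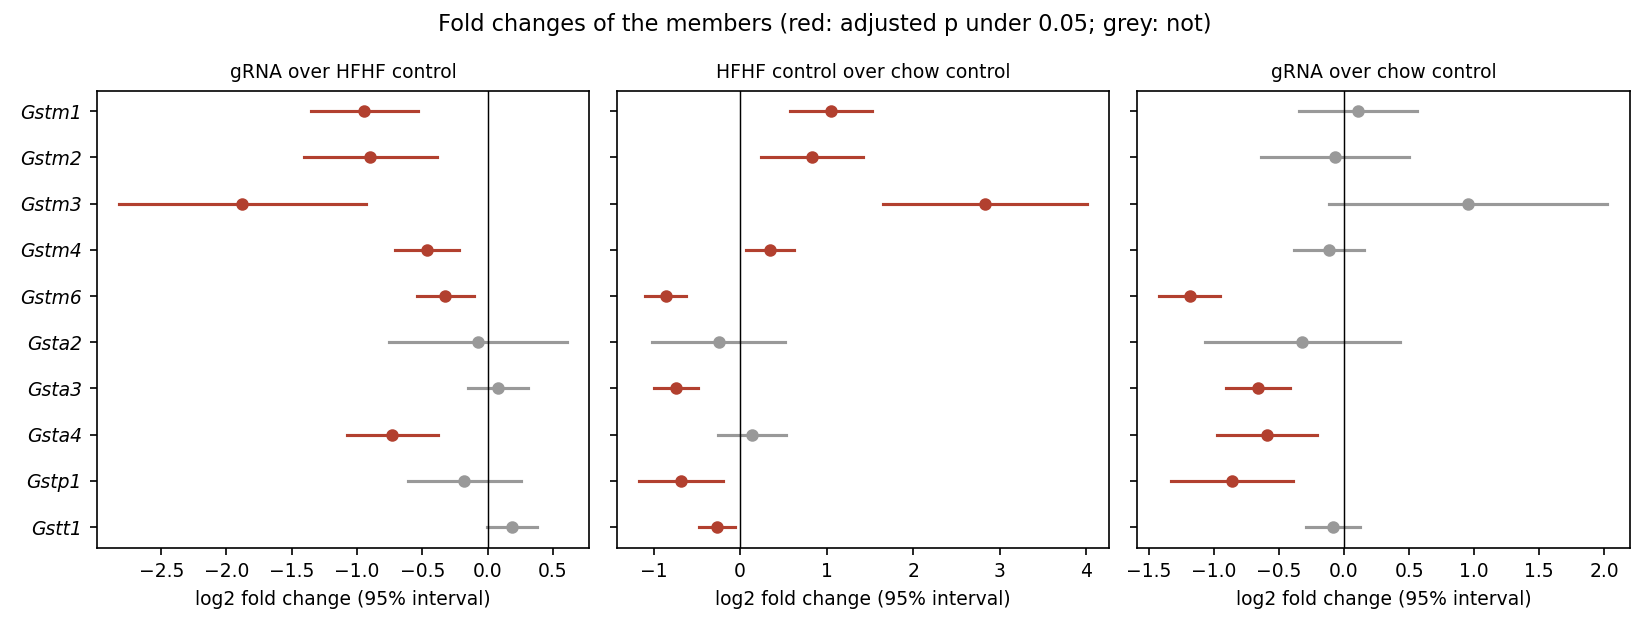
Log2 fold change (x axis) of each of the 10 members (rows) for the comparisons of gRNA with HFHF control, HFHF control with chow and gRNA with chow, with bars for the 95% interval from edgeR's quasi-likelihood fit. Gstm3 lies farthest from 0, at -1.88 for gRNA against HFHF control and 2.83 for HFHF control against chow.

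Gstm1 encodes the most abundant mu-class subunit of mouse liver and was the member with the highest level per length in both HFHF groups. The lowest, median and highest gRNA libraries had 639.9, 898.8 and 1653 CPM of Gstm1. In HFHF controls these were 1560, 1657 and 2659 CPM, and the 5 chow libraries had 1085, 1011, 1097, 779.3 and 769.3 CPM. Of the 8 gRNA libraries, 7 lay below every HFHF control and 1 within their range, while no HFHF control reached down to the chow libraries. Gstm1 was thus lower in gRNA than in HFHF control livers (log2 fold change -0.94, SE 0.20, adjusted p = 0.000741) and higher in HFHF control than in chow livers (1.05, SE 0.23, adjusted p = 0.000569). Between gRNA and chow livers the log2 fold change was 0.11, with a 95% interval of -0.34 to 0.56 (adjusted p = 0.716). Part of this gene's sequence is shared: 81.5% of the 51-base words of its transcripts, the length of a read, occur in no other gene's transcripts, and the largest overlaps are with the pseudogene Gstm2-ps1 and with Gstm3.

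Gstm3, another mu-class subunit, had the largest fold changes of all members in size, both for gRNA against HFHF control and for HFHF control against chow. The gRNA libraries had 47.1, 43.7, 116.5, 133.1, 31.7, 49.9, 280.5 and 24.9 CPM. HFHF controls ran from 218.4 CPM, with a median of 324.8, to 526.7 CPM, and chow libraries had 57.9, 48.3, 65.3, 32.0 and 31.3 CPM. All gRNA libraries but replicate 7 lay below the lowest HFHF control, and all HFHF controls lay above the highest chow library. The log2 fold change was -1.88 for gRNA against HFHF control (SE 0.45, adjusted p = 0.00304) and 2.83 for HFHF control against chow (SE 0.56, adjusted p = 0.000328). Against chow it was 0.95 in gRNA livers, with a 95% interval of -0.12 to 2.02 (adjusted p = 0.142). Without gRNA replicate 7 these were -2.39 against HFHF control (adjusted p = 7.91e-05) and 0.44 against chow (adjusted p = 0.39), so that 1 library moved the value against chow by more than 1.5 times. Of the 51-base words of Gstm3, 71.6% occur in no other gene.

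Gstm2 and Gstm4, whose products are less abundant mu-class subunits, moved in the same directions by less. Gstm2 had 28.6, 43.2 and 93.1 CPM as lowest, median and highest gRNA values, against 61.7, 89.3 and 148.4 CPM in HFHF controls. Its chow libraries had 55.5, 51.0, 69.7, 54.4 and 46.4 CPM. The gRNA libraries overlapped both other groups, with 5 of 8 below every HFHF control. Gstm2 was lower in gRNA than in HFHF control livers (log2 fold change -0.90, SE 0.24, adjusted p = 0.00704) and higher in HFHF control than in chow livers (0.83, SE 0.28, adjusted p = 0.0178). Of the 51-base words of Gstm2, 94.5% are its own. For gRNA against chow the log2 fold change of Gstm2 was -0.07, with a 95% interval of -0.64 to 0.50 (adjusted p = 0.86).

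Gstm4 had 27.9, 34.3 and 47.8 CPM as lowest, median and highest gRNA values, against 38.6, 46.5 and 60.9 CPM in HFHF controls. Chow libraries had 41.6, 43.8, 43.1, 33.2 and 31.8 CPM. The 3 groups overlapped one another. Gstm4 fell in gRNA livers against HFHF controls (log2 fold change -0.46, SE 0.12, adjusted p = 0.00331) and rose in HFHF controls against chow (0.35, SE 0.13, adjusted p = 0.0308). The rise was not called without HFHF control replicate 3 or 7, or without chow replicate 4 or 5, with adjusted p between 0.0587 and 0.069. For gRNA against chow the log2 fold change was -0.12 (SE 0.13, adjusted p = 0.496). All of its 51-base words are its own, so no exact run of that length is shared with transcripts of another gene.

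Gstm6 stood apart from the other mu-class members. It had 38.2, 45.7 and 57.6 CPM as lowest, median and highest gRNA values, against 48.7, 56.6 and 69.4 CPM in HFHF controls, and its chow libraries had 106.5, 113, 131.3, 96.6 and 77.7 CPM. Every library on the HFHF diet, with or without the gRNA, was below every chow library. Gstm6 was lower in HFHF control than in chow livers (log2 fold change -0.86, SE 0.12, adjusted p = 2.01e-06), the direction opposite to that of Gstm1 to Gstm4. It was lower again in gRNA than in HFHF control livers (-0.32, SE 0.10, adjusted p = 0.0178), and its log2 fold change for gRNA against chow was -1.18 (SE 0.11, adjusted p = 5.31e-08).

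**Figure D2:**
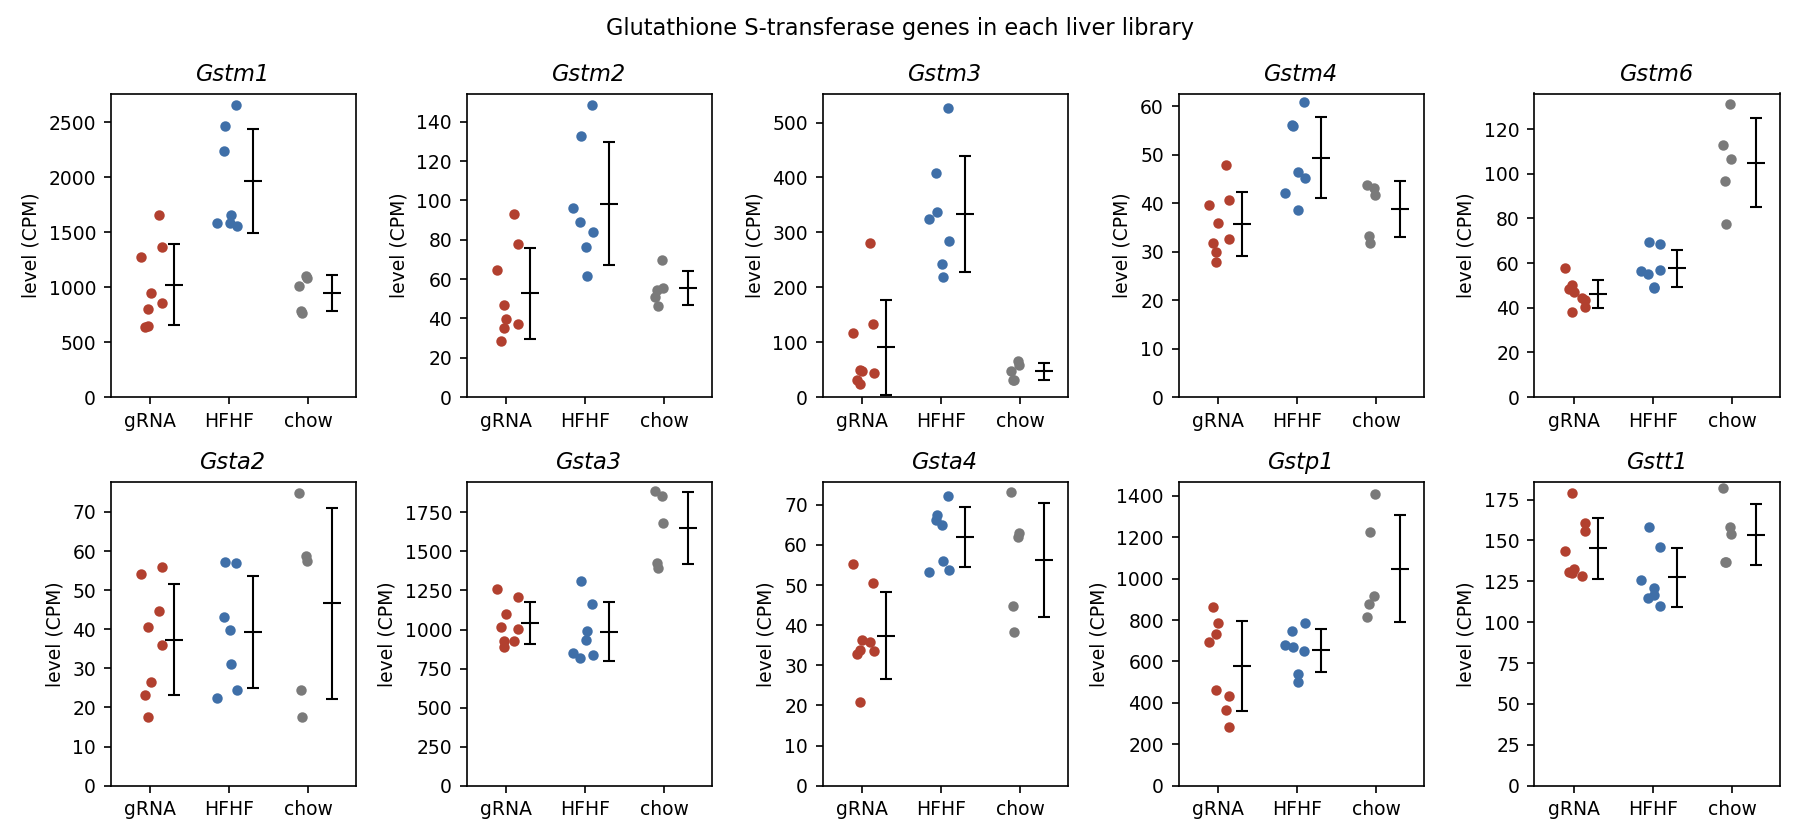
Level in CPM (y axis, from 0) of each of the 10 members in every library, with 1 panel a gene; points are libraries of the gRNA (n = 8), HFHF control (n = 7) and chow (n = 5) groups, and bars show the mean and SD. Gstm1 and Gstm3 are highest in HFHF controls, Gstm6 and Gsta3 in chow libraries.

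Among the alpha class, Gsta3 encodes the subunit that gives mouse liver its high capacity to conjugate the epoxide of aflatoxin B1. The lowest, median and highest gRNA libraries had 886.2, 1012 and 1261 CPM, against 815.6, 931.4 and 1313 CPM in HFHF controls. The chow libraries had 1680, 1890, 1853, 1423 and 1397 CPM. Both HFHF groups lay wholly below the chow libraries, and all 8 gRNA libraries lay within the range of the HFHF controls. Gsta3 fell in HFHF control against chow livers (log2 fold change -0.74, SE 0.12, adjusted p = 2.3e-05) and in gRNA against chow livers (-0.66, SE 0.12, adjusted p = 0.000123). Between gRNA and HFHF control livers its log2 fold change was 0.08, with a 95% interval of -0.15 to 0.31 (adjusted p = 0.605). Its sequence is nearly its own, with 99.8% of 51-base words found in no other gene, and an antisense gene annotated over it, Gm28836, had 0 counts.

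Gsta4 encodes the subunit that prefers 4-hydroxynonenal and related aldehydes of lipid peroxidation. It had 20.9, 34.8 and 55.3 CPM as lowest, median and highest gRNA values, against 53.1, 65.0 and 72.2 CPM in HFHF controls. Chow libraries had 63.0, 73.1, 62.0, 44.9 and 38.4 CPM. In 7 of 8 gRNA libraries Gsta4 was below every HFHF control, while the chow libraries spanned more than the whole range of the HFHF controls. Gsta4 was lower in gRNA than in HFHF control livers (log2 fold change -0.73, SE 0.17, adjusted p = 0.00185). Between HFHF control and chow livers the log2 fold change was 0.14, with a 95% interval of -0.26 to 0.53 (adjusted p = 0.553). For gRNA against chow it was -0.59 (SE 0.18, adjusted p = 0.014), a call that was lost without chow replicate 2 (adjusted p = 0.0697).

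Gsta2, an alpha-class subunit known from mouse and rat as inducible by antioxidants, had 17.6, 38.3 and 55.9 CPM as lowest, median and highest gRNA values, against 22.3, 39.8 and 57.3 CPM in HFHF controls. Its chow libraries had 57.4, 74.8, 58.8, 24.4 and 17.7 CPM. The 3 groups overlapped throughout, and no comparison was called. The log2 fold change was -0.08 for gRNA against HFHF control, with a 95% interval of -0.76 to 0.61 (adjusted p = 0.877), and -0.25 for HFHF control against chow (-1.02 to 0.52, adjusted p = 0.587). For gRNA against chow it was -0.32 (SE 0.36, adjusted p = 0.491).

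The values of Gsta2 are uncertain because its sequence is shared. Of its 51-base words 51.0% occur in no other gene, while 35.6% are found in Gsta1 and 31.3% in Gm10639, both nearby on chromosome 9. Of the words of Gsta1 itself 9.74% are its own, and 75.4% are also found in Gm3776. No source used here states how reads were divided among these genes. Gsta1, an alpha-class subunit, ran from 4.94 CPM, with a median of 10.8, to 55.7 CPM in gRNA libraries, from 30.3 to 119.5 CPM in HFHF controls and from 0.389 to 3.05 CPM in chow libraries. Every HFHF control and every gRNA library had more Gsta1 than any chow library. Its log2 fold change was -1.75 for gRNA against HFHF control (SE 0.47, adjusted p = 0.00717), 4.91 for HFHF control against chow (SE 0.72, adjusted p = 1.8e-05) and 3.17 for gRNA against chow (SE 0.71, adjusted p = 0.00168). Gm3776, its near copy, had log2 fold changes of -2.01, 4.64 and 2.63 in the same comparisons (adjusted p = 0.0104, 0.000184 and 0.0193).

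Summed, the counts of Gsta2, Gsta1, Gm3776 and Gm10639 came to 70.2 ± 43.8 CPM in gRNA livers, 158.2 ± 66.2 CPM in HFHF controls and 51.0 ± 26.5 CPM in chow livers (SD). The chow libraries had 62.1, 81.3, 64.9, 27.1 and 19.4 CPM of this sum. In a fit with these genes as 1 feature, an alternative added after the data were seen, the log2 fold change was -1.17 for gRNA against HFHF control (adjusted p = 0.0279) and 1.63 for HFHF control against chow (adjusted p = 0.00742), and for gRNA against chow it was 0.46 (adjusted p = 0.434). With Gsta1 alone added to Gsta2, the log2 fold change was -0.88 for gRNA against HFHF control, which was not called (adjusted p = 0.066), and 1.10 for HFHF control against chow (adjusted p = 0.0363). So a sum was higher in HFHF control than in chow livers in both fits, whereas the call against HFHF controls in gRNA livers rests on the sum that was added afterwards.

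**Figure D3:**
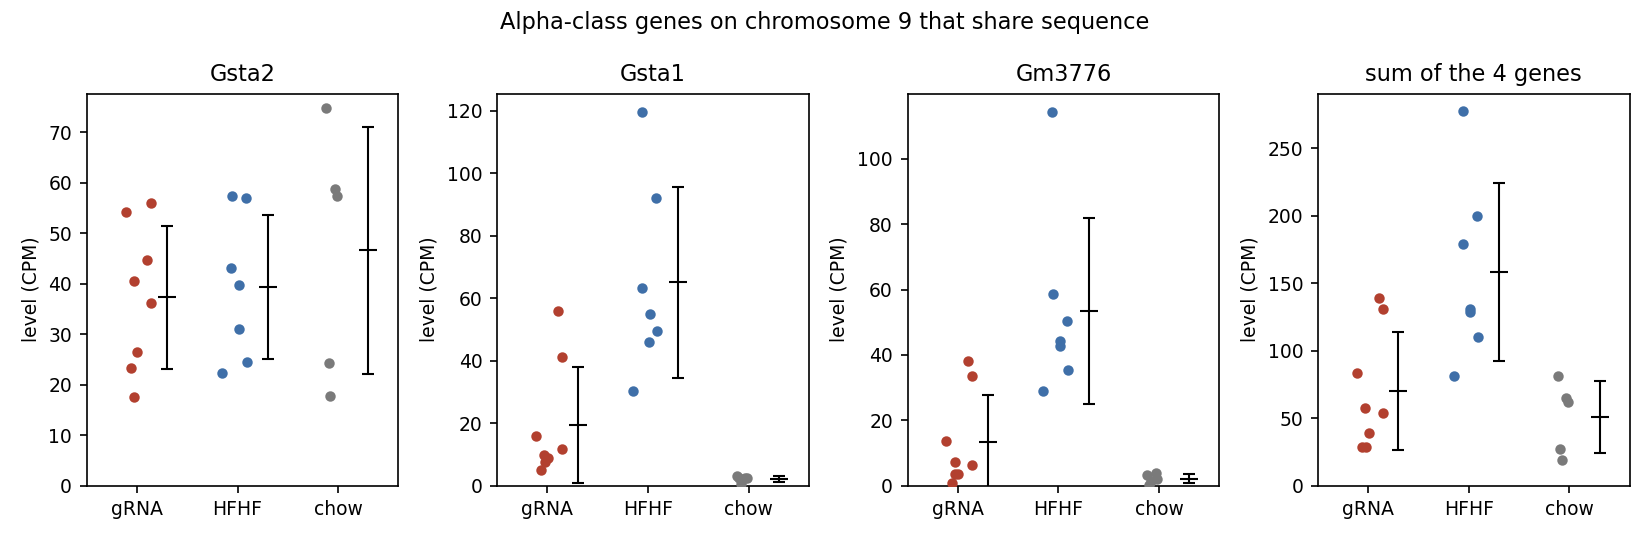
Level in CPM (y axis, from 0) of Gsta2, Gsta1, Gm3776 and the sum of these with Gm10639 in the gRNA (n = 8), HFHF control (n = 7) and chow (n = 5) libraries, with mean and SD as bars. Gsta2 overlaps across the groups, while Gsta1 and Gm3776 are near 0 in chow libraries and highest in HFHF controls.

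Gstp1 is the pi-class member, a subunit known in mouse liver for higher levels in males than in females. The gRNA libraries had 784.2, 433.1, 694.3, 285.8, 865.5, 732.9, 366.7 and 463.2 CPM. HFHF controls ran from 503 CPM, with a median of 671.8, to 784.1 CPM, and chow libraries had 1411, 813.2, 916.5, 877.1 and 1225 CPM. The gRNA libraries spread on both sides of the HFHF controls, with 4 below and 2 above them. Their log2 fold change against HFHF controls was -0.18, with a 95% interval of -0.61 to 0.26 (adjusted p = 0.537). Gstp1 was lower in every HFHF control than in any chow library (log2 fold change -0.68, SE 0.23, adjusted p = 0.0172). This call was lost without chow replicate 1 (adjusted p = 0.0782) or chow replicate 5 (adjusted p = 0.0552). It was also lower in gRNA than in chow livers (-0.86, SE 0.23, adjusted p = 0.00453). Of its 51-base words 66.5% are its own, the rest being shared mainly with Gstp2.

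Gstt1 is the theta-class member, whose product acts on small halogenated compounds such as dichloromethane. It had 128.5, 138.1 and 179.2 CPM as lowest, median and highest gRNA values, against 109.7, 121.2 and 158.5 CPM in HFHF controls. Its chow libraries had 154, 182.1, 158.3, 136.5 and 136.9 CPM. All 3 groups overlapped. The log2 fold change was 0.19 for gRNA against HFHF control, with a 95% interval of -0.002 to 0.38 (adjusted p = 0.11), a value that was called without HFHF control replicate 5 (0.24, adjusted p = 0.0402). Gstt1 fell in HFHF control against chow livers (-0.27, SE 0.10, adjusted p = 0.0291). Its value for gRNA against chow was -0.08 (SE 0.10, adjusted p = 0.534). The call against chow in HFHF controls was lost under upper-quartile scaling (-0.18, adjusted p = 0.141), with no filter on low counts (-0.23, adjusted p = 0.0705), and without HFHF control replicate 1, 6 or 7 or chow replicate 1, 2 or 3.

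Summed in CPM, the 10 members came to 3087 ± 439 in gRNA livers, 4372 ± 797 in HFHF control livers and 4148 ± 498.4 in chow livers (SD, n = 8, 7 and 5). The sum ran from 2590 to 3758 CPM in gRNA libraries, from 3696 to 5551 CPM in HFHF controls and from 3502 to 4711 CPM in chow libraries. The gRNA range reached the lower ends of the other two, while the HFHF control and chow ranges overlapped over most of their length. Gstm1 was 32.4% ± 8.02 of the members' counts in gRNA livers, 44.5% ± 3.07 in HFHF controls and 22.8% ± 1.58 in chow livers (SD). In bulk tissue, fewer cells of a type and less RNA per cell cannot be told apart.

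**Figure D4:**
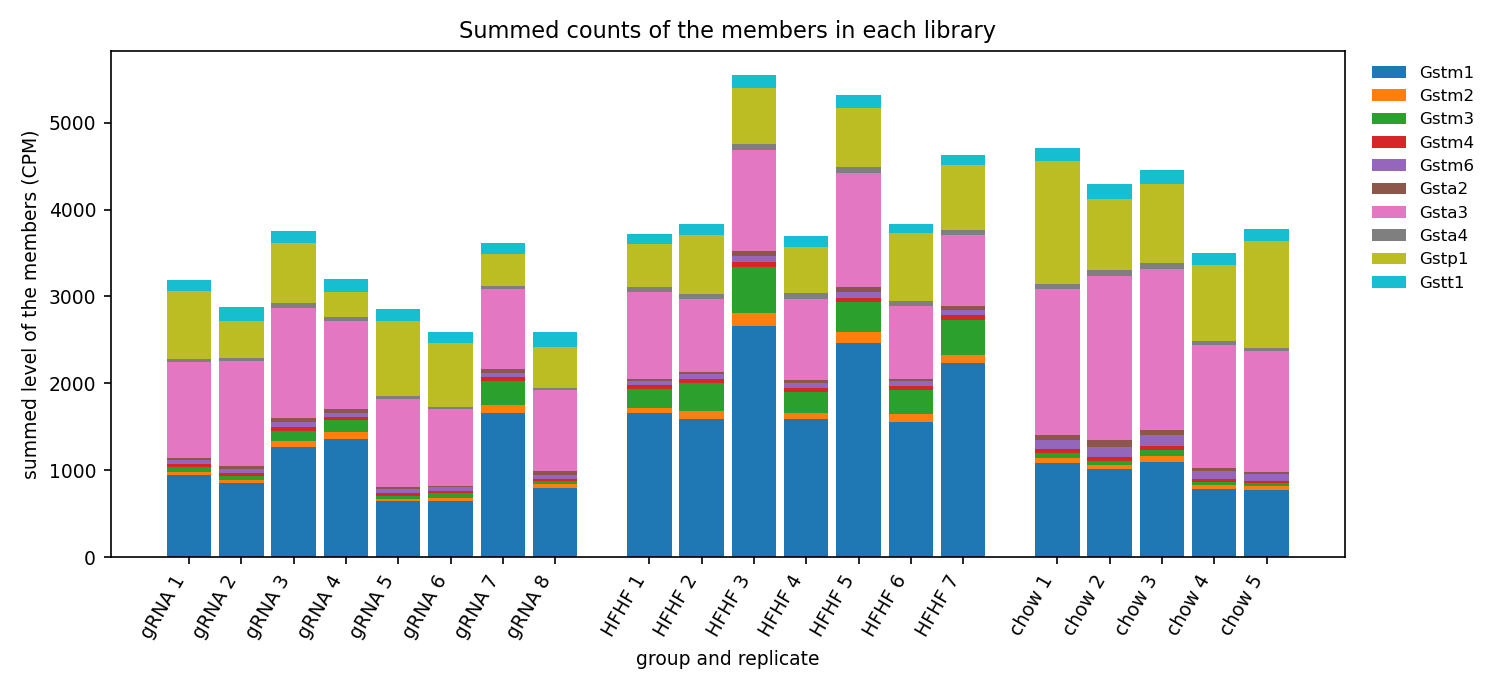
Level in CPM of the members (y axis, from 0) summed and stacked by gene for the gRNA (n = 8), HFHF control (n = 7) and chow (n = 5) livers. Gstm1 takes the largest share in HFHF controls, 44.5% of the members' counts, against 22.8% in chow livers.

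Compared per length, as CPM per kilobase of merged exons, the order of the members changed between groups. The merged exons span 4344 bases in Gsta3 and 1177 to 1989 bases in the other members, so the place of Gsta3 depends on this length. In gRNA livers Gstm1 stood first with 693.4, followed by Gstp1 with 373.5 and Gsta3 with 239.8. In HFHF control livers Gstm1 stood first with 1333, followed by Gstp1 with 422.2, Gstm3 with 255 and Gsta3 with 227. In chow livers Gstp1 and Gstm1 led with 677.3 and 643.8, and Gsta3 followed with 379.5. The libraries of Gstm1 and Gstp1 overlapped in gRNA and in chow livers but not in HFHF controls, so the first place is set apart only in the last of these. Gstt1 came next at 94.97 in gRNA livers, 83.4 in HFHF controls and 100.5 in chow livers, below the range of Gsta3 in each. Gstm3 held place 5 of 10 in gRNA livers with 69.4, place 3 in HFHF controls with 255 and place 8 in chow livers with 35.8. The remaining members lay between 20.9 and 58.6 in both HFHF groups and between 22.7 and 52.8 in chow livers, where most neighbours in the order overlapped. Not divided by length, Gsta3 made up 39.7% of the members' mean CPM in chow livers, against 22.9% for Gstm1. These shares were 33.7% and 33.1% in gRNA livers, and 22.6% and 44.9% in HFHF controls.

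Within the groups many members varied together. The correlation of the deviations of log2 CPM from the group means over all 20 libraries was 0.90 between Gstm1 and Gstm4, 0.89 between Gstm1 and Gstm2 and 0.88 between Gstm1 and Gstm3 (Pearson's r, given as a description). Gsta2 and Gsta4 had r = 0.89, and pairs across classes reached 0.78 for Gsta2 with Gstm1, 0.75 for Gsta2 with Gstm4 and 0.72 for Gsta4 with Gstm1, near the 0.77 of Gstm2 with Gstm4. Gstm6 stood apart from the other mu-class genes, with r of 0.24 to 0.51. Gstp1 ran against most members, down to -0.44 with Gstm2. The points share their library and its scaling, and Gstm1 and Gstm3 share part of their sequence. For 5 members, Gsta2 and Gstm1 to Gstm4, the 3 highest gRNA libraries were replicates 3, 4 and 7. In the same libraries Gstp1 was 694.3, 285.8 and 366.7 CPM, so replicates 4 and 7 were the lowest for it.

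**Figure D5:**
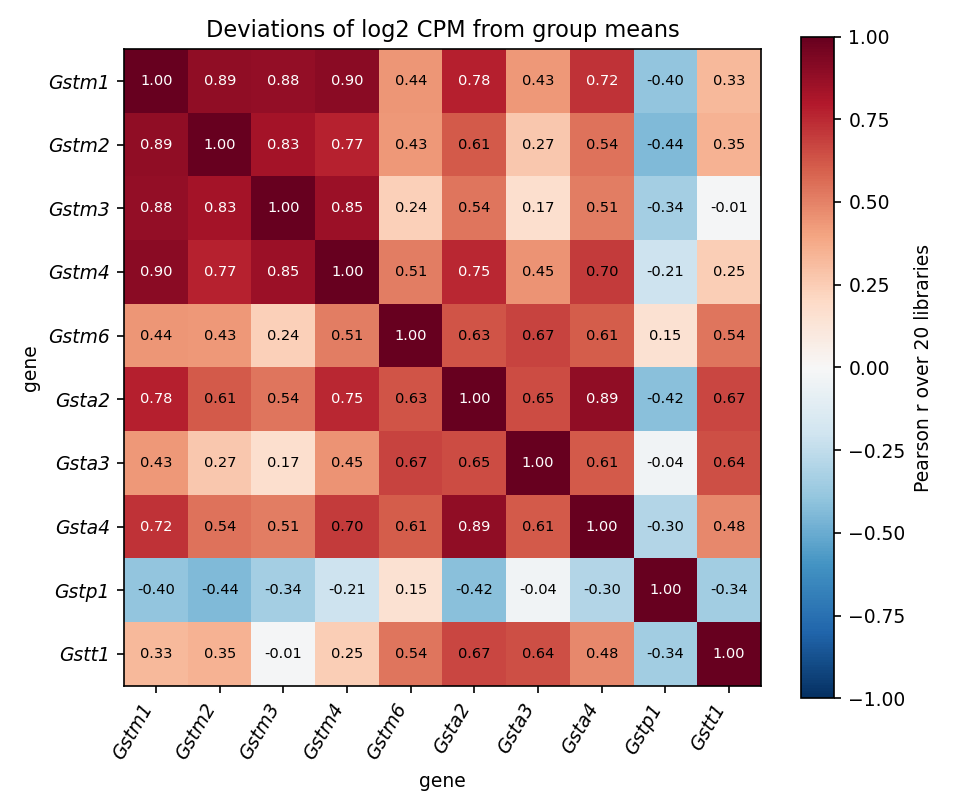
Pearson's r of deviations of log2 CPM from group means between each pair of the 10 members (rows and columns) over 20 libraries, coloured from -1 to 1. Values among Gstm1, Gstm2, Gstm3 and Gstm4 run from 0.77 to 0.90, and Gstp1 has mostly negative values.

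By the same measure, the genes outside the set closest to each member were taken as the 2 with the highest r. They were searched among all genes with assigned names and a mean log2 CPM of at least 2. The highest of so many values is large by selection, so each r is given as a description. Gstm1 lay closest to Cbr1, a carbonyl reductase, and Nqo1, a quinone reductase and textbook NRF2 target (r = 0.85 each). For both Gstm2 and Gstm3 the closest gene was Srxn1, sulfiredoxin, which repairs overoxidised peroxiredoxins (r = 0.83 and 0.82). Gsta2 lay closest to Vldlr, a lipoprotein receptor, with 0.92 and to the theta-class gene Gstt3 with 0.90. Gstm6 lay closest to its neighbour Gstm7 with 0.86, and Gsta3 to Slc27a5, the bile acyl-CoA synthetase, with 0.90. Gstp1 lay closest to Mup20 and Mup21, genes of major urinary proteins, with 0.91 and 0.87. This holds within groups only: Mup20 averaged 12960 CPM in HFHF controls and 5209 CPM in chow livers, whereas Gstp1 was lower in HFHF controls. Gstm4 lay closest to Lyplal1 with 0.82, Gsta4 to Ddah1 with 0.84 and Gstt1 to Pink1 with 0.90.

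Other listed genes, mostly of the superfamily and its structural relatives, did not move as a block. The list also held Ptgds, a prostaglandin synthase gene outside the superfamily, which had its lowest value for HFHF control against chow (log2 fold change -2.71). Of 26 listed, 19 were tested: 3 rose, 5 fell and 11 were not called in gRNA against HFHF control livers, with a median log2 fold change of -0.22. In HFHF control against chow livers 8 rose, 6 fell and 5 were not called, with a median of 0.07, and in gRNA against chow livers 8 rose, 5 fell and 6 were not called, with a median of 0.09. Over all tested genes 38.6%, 57% and 42.6% were called in these comparisons, in the same order. Gsto1, an omega-class enzyme that reduces dehydroascorbate, was 69.4 ± 7.79 CPM in gRNA livers, 43.5 ± 3.45 CPM in HFHF controls and 64.4 ± 8.27 CPM in chow livers (SD). All gRNA libraries exceeded all HFHF controls for Gsto1 (log2 fold change 0.67, adjusted p = 7.11e-07). Mgst3, a microsomal enzyme, moved the other way, with 10.6 ± 4.09 CPM in gRNA livers, 19.3 ± 5.02 CPM in HFHF controls and 5.63 ± 1.19 CPM in chow livers (SD). Its log2 fold change was -0.86 for gRNA against HFHF control (adjusted p = 0.00407) and 1.77 for HFHF control against chow (adjusted p = 2.04e-05). Gstz1, the zeta-class enzyme of tyrosine breakdown, was 0.29 higher on the log2 scale in gRNA than in HFHF control livers (adjusted p = 0.00348), and Gstt3 fell by 1.73 in HFHF control against chow livers (adjusted p = 1.18e-05).

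Genes that supply and recycle glutathione changed in both directions. Of 19 tested genes of its synthesis and turnover, 4 rose and 7 fell in gRNA against HFHF control livers (median log2 fold change -0.05), and 8 rose and 9 fell in HFHF control against chow livers (median -0.07). Over all tested genes 19.6% were called higher and 19% lower in the first comparison, and 28.1% and 28.9% in the second. Gss, glutathione synthetase, had a log2 fold change of -0.54 for gRNA against HFHF control (adjusted p = 1.9e-05) and 1.17 for HFHF control against chow (adjusted p = 2.47e-09). Cth, which makes cysteine from cystathionine, fell by 1.97 in HFHF control against chow livers (adjusted p = 6.66e-08). Of 23 peroxidases, reductases and thiol-transfer genes, 4 rose and 4 fell in gRNA against HFHF control livers (median 0.03), and 13 rose and 5 fell in HFHF control against chow livers (median 0.22). Gpx4, the phospholipid hydroperoxide peroxidase, rose by 1.42 on the log2 scale in HFHF control against chow livers (adjusted p = 4.31e-07).

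Of 24 genes of the NRF2 pathway and its targets, 2 rose, 8 fell and 14 were not called in gRNA against HFHF control livers, with a median log2 fold change of -0.17. In number, the 10 of 24 called lie near the 38.6% called over all genes in either direction. By direction, 19% of all genes were called lower and 19.6% higher. In HFHF control against chow livers 17 rose, 3 fell and 4 were not called, with a median of 0.72, against a background of 28.1% of genes called higher. In gRNA against chow livers 13 rose and 2 fell, with a median of 0.55. The shares of all tested genes there were 20.9% called higher and 21.7% lower. Srxn1 averaged 51.6 ± 11.7 CPM in gRNA livers, 104.1 ± 12.6 CPM in HFHF controls and 29.1 ± 1.20 CPM in chow livers (SD). The 3 groups did not overlap for Srxn1, with log2 fold changes of -1.01 for gRNA against HFHF control (adjusted p = 3.78e-07) and 1.84 for HFHF control against chow (adjusted p = 6.59e-10). Cbr3, a carbonyl reductase, had log2 fold changes of -2.75 and 4.17 in these comparisons (adjusted p = 1.4e-06 and 2.11e-07). Nqo1 was 9.003 ± 3.26 CPM in gRNA livers, 13.2 ± 2.92 CPM in HFHF controls and 4.90 ± 1.67 CPM in chow livers (SD), and its value of -0.55 for gRNA against HFHF control was not called (adjusted p = 0.053). The list and the mu-class members were chosen with earlier results of these data known, so the counts are a description.

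Enzymes and carriers that act beside the transferases had more rises than falls in gRNA against HFHF control livers. For HFHF control against chow they had more falls than rises. Of 27 tested genes of conjugate export and other phase II enzymes, 12 rose and 2 fell in gRNA against HFHF control livers (median log2 fold change 0.28), and 5 rose and 16 fell in HFHF control against chow livers (median -0.42). The shares over all tested genes were 19.6% higher and 19% lower in the first comparison, and 28.1% and 28.9% in the second. Ephx2, soluble epoxide hydrolase, rose by 0.87 in gRNA against HFHF control livers (adjusted p = 1.08e-07), and the sulfotransferase gene Sult2a8 had log2 fold changes of 2.91 and -4.11 (adjusted p = 1.93e-05 and 4.28e-07). Of 23 xenobiotic receptors and their P450 targets, 9 rose and 1 fell in gRNA against HFHF control livers (median 0.23), and 2 rose and 13 fell in HFHF control against chow livers (median -0.43). Cyp1a2, a P450 of the pericentral lobule, had log2 fold changes of 1.68 and -2.59 in these comparisons (adjusted p = 1.75e-07 and 7.93e-10).

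Other properties of the livers moved with the same groups. Over 9 markers of monocyte-derived macrophages the summed level was 85.2 to 216.1 CPM in gRNA libraries, 151.8 to 371.8 CPM in HFHF controls and 29.0 to 46.6 CPM in chow libraries, and 0 rose and 7 fell in gRNA against HFHF control livers. Over 10 stellate cell markers it was 369.6 to 475.5 CPM in gRNA libraries, 592.6 to 714.2 CPM in HFHF controls and 278.3 to 349.1 CPM in chow libraries, with 0 rising and 7 falling. Over 10 cholangiocyte markers it was 81.8 to 127.9 CPM in gRNA libraries, 113.1 to 280.6 CPM in HFHF controls and 77.8 to 104.8 CPM in chow libraries, with 1 rising and 4 falling of 6 tested. Spp1 is in both the macrophage and the cholangiocyte list and is a large part of both sums in HFHF controls. It averaged 40.0 CPM in gRNA livers, 158.2 CPM in HFHF controls and 19.9 CPM in chow livers. The macrophage marker Gpnmb went the other way, with 72.3 CPM in gRNA livers and 46.1 CPM in HFHF controls, and was not called. The medians of the macrophage, stellate cell and cholangiocyte sums were highest in HFHF controls, as were those of Gstm1 and Gstm3, whereas the hepatocyte sum given above was lowest there. Of the hepatocyte markers 6 rose and 1 fell in gRNA against HFHF control livers. In gRNA against HFHF control livers 3 of 9 Kupffer cell markers rose and 4 fell, 3 of 9 endothelial markers rose and 0 fell, 4 of 9 lymphocyte markers rose and 4 fell, and 0 of 3 tested neutrophil markers rose and 3 fell. Over all tested genes 19.6% were called higher and 19% lower in this comparison. No marker of the hepatocyte, macrophage, stellate and cholangiocyte lists had 0 counts throughout a group except 1 cholangiocyte marker in chow libraries, and the part of these markers in the results was not tested.

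Genes of lobular zone and of sex bias were counted as well. Over all tested genes 38.6% were called for gRNA against HFHF control, 19.6% higher and 19% lower. For HFHF control against chow 57% were called, 28.1% higher and 28.9% lower. In gRNA against HFHF control livers 7 of 20 pericentral genes rose and 1 fell, and 10 of 20 periportal genes rose and 0 fell. Taken in both directions together, the number of pericentral calls lies near the share over all genes, but most of these calls were rises. In HFHF control against chow livers 4 pericentral genes rose and 11 fell, and 3 periportal genes rose and 13 fell. Of 19 male-biased liver genes, 8 rose and 1 fell in gRNA against HFHF control livers, and 1 rose and 16 fell in HFHF control against chow livers. Of 11 tested female-biased genes, 0 rose and 2 fell in gRNA against HFHF control livers, and 6 rose and 0 fell in HFHF control against chow livers. Gstp1 fell in HFHF control against chow livers, as the larger part of the male-biased list did. For gRNA against HFHF control Gstp1 was not called. Mup20, the gene closest to Gstp1 within groups, was the gene of this list that rose for HFHF control against chow (log2 fold change 1.315). It was also the gene of the list that fell for gRNA against HFHF control (-0.815). The part of these lists in the members' values was not tested.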

How the data were processed

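Liver messenger RNA of 20 libraries in 3 groups was analysed. Per the labels' protocols, poly(A) libraries carried molecular identifiers and were read single-end for 51 cycles. The authors deposited expected counts, which are estimates (77.8% of values of at least 1 were whole). The build was GRCm38 per the submitters' processing notes. No source used here names the aligner or the counter, or states the use of strand and identifiers, so shared sequence, antisense reads or amplified copies could affect values. One column, of 1 sample matching no label, was not used, and 22 construct features, 2.15e-06% of counts, were left out.

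Rounded counts passed edgeR's filterByExpr (13667 genes). TMM-scaled CPM give levels. All groups entered 1 quasi-likelihood fit (edgeR 4.0.16, R 4.3.3, 17 residual degrees of freedom) with Benjamini-Hochberg adjustment over all tested genes and a threshold of 0.05. SEs and 95% intervals come from this fit. It was also run on counts simulated independently from its own estimates of spread, which cannot test its use on genes that share reads. Alternatives were DESeq2 1.42.0, other scalings, no filter, pairwise fits, summed paralogs and each library left out. Members, lists and alternatives were chosen with earlier results of these data known. Named genes are the members, up to 4 genes of smallest p per list and comparison, and each member's 2 nearest genes, of which those printed are a selection.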

Additional observations from a re-analysis of the deposited data

Results flagged for a closer look

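Of 30 sets of values checked, each 1 member in 1 group, 1 had a library far from the rest. Gstm3 in gRNA replicate 7 was 280.5 CPM, where the next highest gRNA library had 133.1 CPM. The gap was 0.577 of the whole range, above Dixon's 95% critical value for 8 libraries. Chance alone marks about 1 in 20 sets, so 1 among 30 is not unusual. For Gstm1, Gstm2 and Gstm4 the same library also held the highest gRNA value.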

How the results depend on the processing

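The number of called genes and the number of called members stayed within 1.5 times the main count in each comparison under every alternative run. Leaving out 1 library at a time gave 4632 to 5287 called genes and 6 to 7 called members for gRNA against HFHF control, 7204 to 7614 genes and 6 to 8 members for HFHF control against chow, and 5152 to 5921 genes and 3 to 4 members for gRNA against chow. Of the members' log2 fold changes under alternatives, 550 kept direction and side of the threshold, 15 reversed, 16 lost and 2 gained a call. The reversals were of values near 0 or of Gsta2. With 1 library left out, Gsta2 ran from -0.18 to 0.036 for gRNA against HFHF control and from -0.43 to 0.021 for HFHF control against chow, and for gRNA against chow Gstm1 ran from -0.026 to 0.21, Gstm2 from -0.23 to 0.055 and Gstt1 from -0.11 to 0.012. With Gsta1 added, Gsta2 was -0.88 for gRNA against HFHF control (adjusted p = 0.066), 1.10 for HFHF control against chow (adjusted p = 0.0363) and 0.22 for gRNA against chow. With Gsta1, Gm3776 and Gm10639 added, chosen after seeing the data, it was 1.63 for HFHF control against chow and 0.46 for gRNA against chow. For gRNA against HFHF control this sum was called lower, with the value given above. Adding the counts of Gstm7 to Gstm2 ended the call of Gstm2 for HFHF control against chow (0.33, adjusted p = 0.158) by construction, since Gstm7 itself fell (-0.66, adjusted p = 0.000217) and 99.6% of its 51-base words are its own. Upper-quartile scaling moved the share of higher calls to 37.8% for gRNA against HFHF control (50.7% in the main fit), 60.7% for HFHF control against chow (49.4%) and 55.6% for gRNA against chow (49.1%). Without gRNA replicate 8, whose title has another second field and a library number outside the run of the others, every member kept direction and call. Depth did not limit the members, each with at least 226.9 counts in every library, but shared sequence limits Gsta2, Gstp1, Gstm3 and Gstm1. No paired analysis was possible because the labels give no replicate numbers.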
